A study of Triticum aestivum and Triticum turgidum subsp. durum with 27 samples.

Results

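The response of the wheat deletion line CS_5AL-10 to a mild drought was followed in its glumes, the green bracts at the base of the spikelet. The members of the comparison are 6 of the 27 arrays of the series, chosen by their titles: 3 arrays of stressed plants (MS) and 3 of well watered plants (CTRL). CS_5AL-10 is derived from the hexaploid bread wheat Chinese Spring (CS) and is 1 terminal deletion line, in which chromosome 5A ends before the tip of its long arm, and this loss is carried by the CTRL plants too. One label field gives the genotype of these samples as CS, whereas the title, the source name and the description name the deletion line, and the arrays were grouped by the latter. Plants were 3 months old and, per the labels, 10 days past anthesis. The soil of all plants was kept at a water content of 28% until 3 days after anthesis. Watering then continued for the CTRL plants and ceased for the MS plants, whose soil dried to 18%. The labels give the same pair of leaf water potentials, -2.1 and -2.6 MPa, for the MS plants of all genotypes. In the study this pair is a range over genotypes, from -2.1 MPa in CS_5AL-10 to -2.6 MPa in Creso, with CS between them. MS is termed mild in the titles and moderate in the descriptions. RNA was hybridised to the Affymetrix Wheat Genome Array, and the 3 arrays of a group are biological replicates in the study's methods. The same treatments of CS and of the tetraploid durum wheat Creso, and severe stress (SS, soil at 12.5%) in CS_5AL-10, served as points of comparison.

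Drying tissue makes abscisic acid (ABA), a hormone cut from carotenoids in the plastid, first by epoxidation of zeaxanthin and then by 9-cis-epoxycarotenoid dioxygenase (NCED), the step that usually limits the flux. ABA acts by blocking protein phosphatases of the 2C class, which frees kinases that activate bZIP transcription factors, and these induce dehydrins, other protective proteins and enzymes for compatible solutes such as proline. Glumes are photosynthetic, feed the growing grain and lie close to it, so that samples of them can carry RNA of the grain.

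Of 61179 wheat probe sets, 34089 were tested. A difference is MS minus CTRL on the scale of log2(intensity + 16) after each array was centred on a common median, given with its standard error (SE). The added 16 makes the differences of weakly expressed genes too small. A probe set was called up- or down-regulated at a Benjamini-Hochberg adjusted p under 0.05 in limma with at least a 2-fold difference. Array medians ran from 82.5 to 99.07 over the 6 arrays, and the correlation across probe sets was 0.952 to 0.9753 within CTRL, 0.9442 to 0.9598 within MS and 0.8998 to 0.9437 between them. The number of arrays limits the precision. A probe set may read several homoeologous copies of a gene, and probe sets of 1 UniGene cluster may share transcripts, so that they are not independent. In whole glumes, fewer cells of a type cannot be told apart from less RNA per cell.

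Light harvesting and grain transcripts differed in how evenly they were spread over the arrays of a group. The mean log2 level of 40 probe sets for light harvesting and photosystem proteins was 10.44, 10.1 and 10.31 on the CTRL arrays and 10.75, 10.78 and 10.73 on the MS arrays. The MS arrays lay above all CTRL arrays (difference 0.47), with an exact two-sided permutation p of 0.1, the smallest that 3 arrays against 3 allow. Of these 40 probe sets, 35 come from the study's list of drought-responsive genes, which was chosen on these same samples. Their separation is therefore not independent evidence of a change in green tissue. The 10 probe sets for endosperm storage proteins averaged 9.1, 10.81 and 11.52 in CTRL and 11.31, 8.58 and 7.26 in MS. These groups overlapped, with the grain signal highest in CTRL replicate 3 and MS replicate 1 (difference -1.43, exact permutation p = 0.3), and none of the 10 was called. The other 11 grain proteins followed the same order of arrays, from 8.98 to 11.08 in CTRL and from 7.2 to 10.9 in MS. The 4 tested pollen and anther markers averaged 9.38 to 9.52 in CTRL and 9.02 to 9.42 in MS, and 1 of them, a polcalcin, was called lower (-1.16, adjusted p = 0.00879, or 0.0677 without MS replicate 3). None of the 5 embryo and aleurone markers passed the filter on low values. Because the grain transcripts varied this much, each count was also taken without CTRL replicate 3 and MS replicate 1, a choice made after their values were seen.

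**Figure D1:**
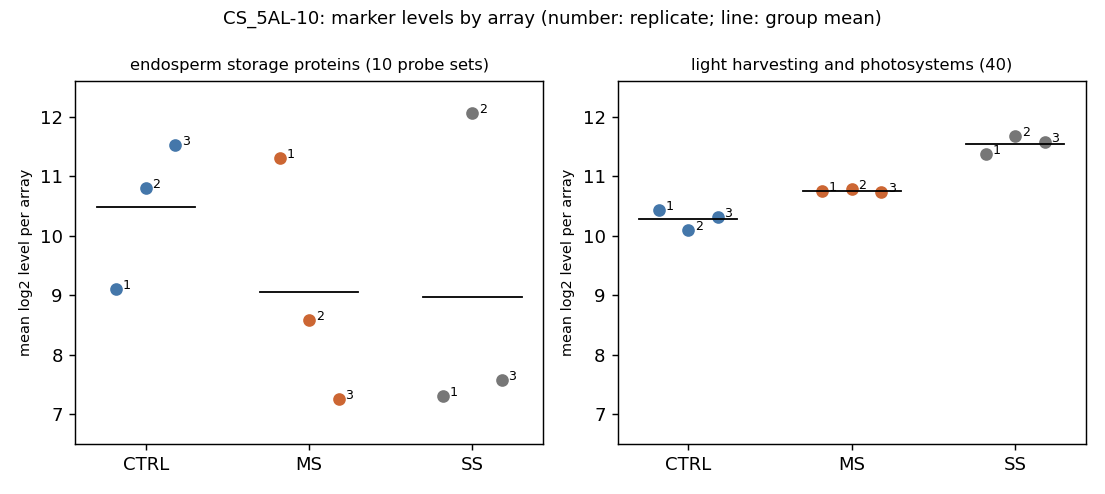
Mean log2 level of the endosperm storage proteins (10 probe sets, left) and of the light harvesting and photosystem proteins (40, right) on each CS_5AL-10 array, by group, with the replicate number beside each point and the group mean as a line. The storage proteins ranged from 7.26 to 11.31 within MS alone, whereas the light harvesting level of the MS arrays stayed between 10.73 and 10.78.

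Mild stress raised 265 probe sets of CS_5AL-10, from 234 UniGene clusters, and lowered 511, from 454 clusters. These are 0.777% and 1.5% of the probe sets tested. The rises were moderate, with a median of 1.34 and 171 of 265 under 3-fold, and 3 exceeded 8-fold. The falls had a median of -1.52, with 277 of 511 under 3-fold and 31 over 8-fold. CTRL and MS values did not overlap for any of the 265 and for 506 of the 511, beside 10.6% of all tested probe sets that lay wholly above and 16.7% wholly below. The share of rises among the calls was 34.1% and depended on the scaling: it was 40.2% with no centring, 44.4% after quantile normalization and 52.7% when the arrays were centred on the tested probe sets alone. Leaving out CTRL replicate 1, 2 or 3 or MS replicate 3 reduced the 776 calls to 487, 477, 492 and 503, and without both CTRL replicate 3 and MS replicate 1 there were 105 rises and 284 falls. A name was held for 73 of the rises and 91 of the falls. Most names come from the part of the study's drought gene list that was held, which was chosen on these same samples. Counts in the gene lists below are therefore not independent evidence of their direction. Of the 1416 tested probe sets of that drought list 92 rose (6.5%) and 154 fell (10.9%), with 668 positive and 748 negative differences. Most lists below were drawn largely from it, so that their counts are to be read beside these shares. Over all probe sets tested, 15612 differences were positive and 18477 negative.

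**Figure D2:**
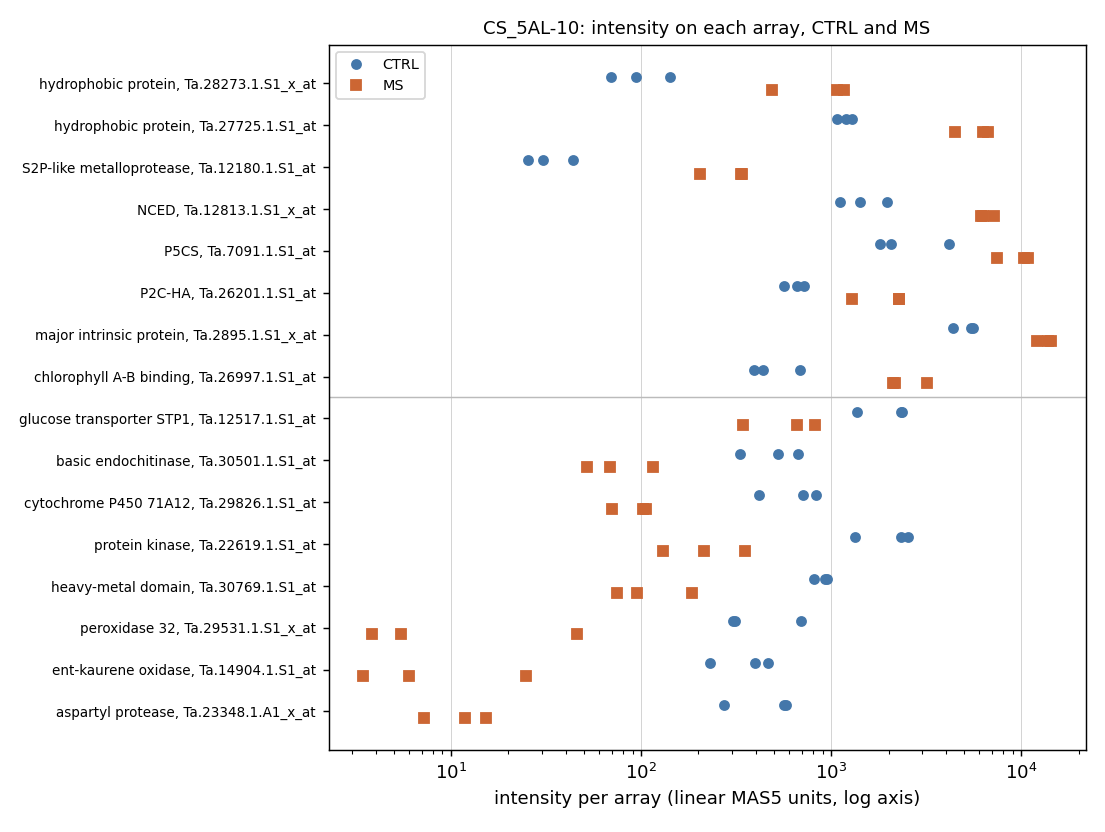
Intensity of 16 named probe sets on each CTRL array (circles) and each MS array (squares) of CS_5AL-10, on a log axis, with up-regulated probe sets above the line and down-regulated ones under it. The groups are apart in every row; for ent-kaurene oxidase the 3 CTRL values lie between 230.5 and 466 and the MS values between 3.44 and 24.8.

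In carotenoid and ABA synthesis, zeaxanthin epoxidase and NCED were called higher. Of 25 tested probe sets 5 were up-regulated and none down-regulated, with a median difference of 0.22 beside -0.04 over all probe sets. At the entry of the pathway, phytoene synthase, which joins the first carotenoid precursors, read 475, 464 and 508 in CTRL and 858, 782 and 760.2 in MS. Its values did not overlap, and its difference of 0.67 (SE 0.17, adjusted p = 0.0249) was under 2-fold. Lycopene beta-cyclase and beta-carotene hydroxylase, which make and then hydroxylate beta-carotene, had differences of 0.86 and 0.91 that missed the threshold (adjusted p = 0.332 and 0.263). Zeaxanthin epoxidase, which makes the epoxides that NCED cleaves, read 1650, 2163 and 1560 in CTRL against 3977, 4101 and 3044 in MS. It rose by 1.01 (SE 0.23, adjusted p = 0.0125), about at the 2-fold limit.

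NCED carried the other 4 calls, at probe sets of 2 clusters. The leading probe set of the first cluster read 1970, 1420 and 1106 in CTRL and 6142, 7143 and 6255 in MS, so that each stressed sample exceeded the highest control by a wide margin (2.11, SE 0.28, adjusted p = 0.00015). The other probe set of that cluster rose from 936, 855 and 622 to 2980, 3472 and 3186 (1.96, SE 0.32, adjusted p = 0.00105). The pair of probe sets of the second cluster rose by 1.88 and 1.46 (adjusted p = 0.0211 and 0.0251). A further NCED probe set went from 312.5, 519 and 642 to 1190, 1137 and 446 and was not called (0.79, SE 0.44, adjusted p = 0.345), since the third MS array lay within the control values. The same probe set had a difference of 2.26 in CS, but the contrast of the genotypes missed the threshold (-1.48, SE 0.62, adjusted p = 0.408). The calls of the pair and of zeaxanthin epoxidase were lost on leaving out CTRL replicate 3 or MS replicate 2. Those of the pair were also lost without MS replicate 3, and those of its lesser member and zeaxanthin epoxidase without CTRL replicate 1 (adjusted p up to 0.129 for the pair and 0.0724 for the epoxidase).

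In ABA signalling the median difference of 18 tested probe sets was 0.01, with 9 positive and 9 negative differences. Of the 18, 2 probe sets rose, both for P2C-HA, a phosphatase of the 2C class that restrains the pathway in Arabidopsis. The first of them read 960, 919 and 982 in CTRL, and 4069, 3731 and 1993 in MS (1.65, SE 0.39, adjusted p = 0.0154). The second followed the same order of arrays, from 717, 657 and 563 to 2270, 2259 and 1288 (1.49, SE 0.3, adjusted p = 0.00519). MS replicate 3 was the lowest stressed sample for both and was still above all controls. The CBL-interacting protein kinase CIPK10, a calcium-signalling kinase, read 236, 138.5 and 212 in CTRL and 164.5, 160.4 and 338 in MS, a difference of 0.08 (SE 0.38, adjusted p = 0.946). Its difference in CS was 1.95, and the contrast between the genotypes, -1.87 (SE 0.54), had an adjusted p of 0.231. Leaving out CTRL replicate 1, 2 or 3 or MS replicate 1 or 2 ended the call of the first P2C-HA probe set (adjusted p up to 0.073), and leaving out any 1 array did not end that of the second. Without both CTRL replicate 3 and MS replicate 1 neither call remained.

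Among 51 transcription factor probe sets 3 rose and 4 fell, shares of 5.88% and 7.84% beside 6.5% and 10.9% in the study's drought list. A bZIP factor, of the family that ABA activates, rose from 968, 886 and 620.4 to 2238, 2421 and 3386 (1.64, SE 0.29, adjusted p = 0.00166), and another probe set of its cluster made the second call. MYB4, a repressor of phenylpropanoid genes in Arabidopsis, rose from 129, 135 and 198 to 889, 536 and 422 (1.81, SE 0.49, adjusted p = 0.0345). In the opposite direction, a NAM family factor fell from 343, 179 and 206 to 16.8, 118 and 26.8 (-2.16, SE 0.48, adjusted p = 0.0107). ATERF-9, an ethylene response factor, read 2166, 2007 and 2086 in CTRL and 1012, 1020 and 867 in MS. This fall (-1.14, SE 0.23, adjusted p = 0.00624) was far larger than the spread within groups, and it was the only call among 4 ethylene probe sets, whose median was -1.33. MYB4 lost its call without any 1 of the 6 arrays (adjusted p 0.0555 to 0.112), and the NAM factor without CTRL replicate 1, MS replicate 1 or MS replicate 3 (up to 0.0595).

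Proteins that protect dehydrated cells had mostly positive differences, with few calls. Of 18 dehydrin and LEA probe sets, 2 were up-regulated (11.1%) and 1 down-regulated (5.56%), with a median of 0.74 and 16 of 18 positive differences. All 18 come from the study's drought list, of whose tested probe sets 6.5% rose and 10.9% fell. No rise remained without MS replicate 1, or without both CTRL replicate 3 and MS replicate 1. RAB18, an ABA-induced dehydrin in Arabidopsis, read 5.9, 64.1 and 49.2 in CTRL and 177, 77.1 and 223 in MS (1.71, SE 0.48, adjusted p = 0.0408). XERO2, another dehydrin, read 22.6, 33.2 and 48.02 against 212, 146 and 107 (1.7, SE 0.44, adjusted p = 0.0266). Both were under the array median in CTRL, as was RAB18 in MS replicate 2, and their groups did not overlap. A LEA protein of group 3 fell instead, from 710, 756.5 and 389 to 296, 364 and 142 (-1.24, SE 0.33, adjusted p = 0.0333). Each of these 3 calls was lost on leaving out any of 4 arrays: CTRL replicate 1 and MS replicate 1 for all 3, with CTRL replicate 3 and MS replicate 3 for RAB18 (adjusted p up to 0.225), CTRL replicate 2 and MS replicate 2 for XERO2 (up to 0.107), and CTRL replicate 2 and MS replicate 3 for the LEA protein (up to 0.188).

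The 4 calls among 19 other dehydration-induced proteins were all rises, and 3 of them were small hydrophobic membrane proteins of the kind induced by cold and salt. The first of these read 1288, 1198 and 1066 in CTRL and 6678, 6281 and 4489 in MS, with the groups far apart (2.23, SE 0.28, adjusted p = 8.05e-05). Another rose from 116, 126 and 132 to 740.2, 608 and 390.3 (2, SE 0.42, adjusted p = 0.00739). The third had the larger difference, from 141.5, 69.4 and 93.5 to 1159, 1075 and 485.5 (2.89, SE 0.47, adjusted p = 0.00103). None of these 3 lost its call on leaving out 1 array. The fourth call, a wound-responsive protein, rose from 456, 480 and 323 to 1014, 808.5 and 1108 (1.16, SE 0.33, adjusted p = 0.0444) and lost its call without any 1 of the 6 arrays (adjusted p 0.0702 to 0.202). Outside the list, a glycine-rich protein rose from 563, 428 and 350 to 3111, 1935 and 3449 (2.57, SE 0.38, adjusted p = 0.000493), and this call held without any 1 array. A splicing factor with a PWI domain had the largest rise with a name, 3.22 (SE 0.72, adjusted p = 0.0119), from 177, 133 and 139 to 3889, 2142 and 445. Its MS values spread widely, and the call was lost without MS replicate 1 or 2 (adjusted p up to 0.0603).

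For compatible solutes, 1 enzyme of the proline route from glutamate was called higher. Delta-pyrroline-5-carboxylate synthase (P5CS), which controls that step, read 2068, 1797 and 4156 in CTRL and 10770, 7463 and 10320 in MS. The highest control stayed under the lowest stressed sample (1.87, SE 0.34, adjusted p = 0.00229). It was the only call among 12 proline probe sets, of which 10 had positive differences. Ornithine cyclodeaminase, of the route from ornithine, read 1338, 1353 and 1259 against 2168, 2167 and 2790, a difference under 2-fold (0.8, SE 0.23, adjusted p = 0.0433).

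Sugar metabolism gave 5 rises and no fall among 32 probe sets. Sucrose synthase, which splits sucrose for use, rose at 2 probe sets, the first from 792, 750 and 720 to 1579, 1458 and 2272 and the second from 921, 913 and 698 to 1934, 1728 and 2479. Their differences were 1.15 (SE 0.23, adjusted p = 0.00473) and 1.22 (SE 0.26, adjusted p = 0.00845). Fructan 6-exohydrolase (6-FEH), which releases fructose from stored fructan, rose at a first probe set from 13.7, 60.4 and 33.6 to 168, 195 and 225 (2.08, SE 0.54, adjusted p = 0.0275) and at a second from 217, 206 and 282 to 634, 435.4 and 659.7 (1.19, SE 0.27, adjusted p = 0.0115). In CS the first 6-FEH probe set differed by -0.5, but the contrast of 2.58 (SE 0.76) did not pass (adjusted p = 0.239). Without MS replicate 3 none of the 5 calls remained, and the first 6-FEH probe set also lost its call without CTRL replicate 1, CTRL replicate 3 or MS replicate 2 (adjusted p up to 0.128), the second without CTRL replicate 2 (up to 0.0627) and the second sucrose synthase probe set without CTRL replicate 3 (up to 0.0558).

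Aquaporins, the channels that pass water through membranes, had 4 rises and 1 fall among 10 probe sets, with a median of 0.9. A major intrinsic protein went from 5426, 5586 and 4338 to 14320, 12110 and 13820. Every MS value was above every control (1.36, SE 0.17, adjusted p = 8.05e-05). A further probe set of its cluster (1.47, SE 0.28, adjusted p = 0.00356) and 1 of another cluster (1.14, SE 0.18, adjusted p = 0.00067) moved with it. A tonoplast intrinsic protein, a channel of the vacuole membrane, fell from 286, 287 and 172 to 24.5, 123.5 and 59.1 (-1.82, SE 0.49, adjusted p = 0.0341). That fall was lost without CTRL replicate 1 or 2 or MS replicate 1 or 3 (adjusted p up to 0.154), while the 3 rises given here held without any 1 array.

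Photosynthesis genes had mostly positive differences, few of which passed the 2-fold limit. Among 40 light harvesting and photosystem probe sets 33 had positive differences (median 0.53), 3 were up-regulated and none down-regulated. A chlorophyll a-b binding protein, which holds the pigments of the antenna, rose from 435.2, 683 and 393 to 3177, 2119 and 2151 (2.24, SE 0.4, adjusted p = 0.00202). A second antenna protein started at 5181, 3515 and 5190, and reached 12020, 13390 and 9095 (1.28, SE 0.29, adjusted p = 0.0128). A companion probe set of its cluster rose by 1.1 (SE 0.21, adjusted p = 0.0031). Geranylgeranyl reductase, which makes the phytyl tail of chlorophyll, was the 1 call of 12 chlorophyll and haem probe sets and rose from 6304, 5073 and 4886 to 10590, 10290 and 12800 (1.01, SE 0.19, adjusted p = 0.00401). The calls of the second antenna protein and its companion were lost without CTRL replicate 2 or MS replicate 2 (adjusted p up to 0.0719, or a difference under 2-fold), and that of geranylgeranyl reductase, by falling under 2-fold, without CTRL replicate 2, CTRL replicate 3 or MS replicate 3.

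Protein turnover had 4 rises and 2 falls among 22 probe sets. An S2P-like metalloprotease, of a family that cuts proteins within membranes, read 30.6, 43.96 and 25.4 in CTRL and 339, 204 and 337 in MS (2.59, SE 0.42, adjusted p = 0.00103). A peptidase of the S41 family rose from 572, 522 and 418 to 3712, 3188 and 1859 (2.41, SE 0.45, adjusted p = 0.00327). Ribonuclease 1 (RNS1), an enzyme of senescing and phosphate-starved Arabidopsis tissue, was named after its values were seen, at 426, 368 and 334 in CTRL and 1073, 959 and 1500 in MS (1.55, SE 0.34, adjusted p = 0.00946, or 0.0594 without MS replicate 3). The groups of all 3 were apart. In the wall and the cytoskeleton, 5 of 47 and 2 of 22 probe sets rose and 1 and 0 fell. A xyloglucan transferase, which loosens and rejoins wall polymers, rose from 558, 610.4 and 869 to 2250, 2357 and 2452 (1.76, SE 0.4, adjusted p = 0.0119). A differently named enzyme of the same kind, XTH, was the 1 wall fall (-2.06, SE 0.6, adjusted p = 0.0485), with overlapping values of 139, 151 and 473 against 172, 10.4 and 22. Actin-depolymerizing factor 3 (ADF3), which severs actin filaments, rose from 186, 225 and 247 to 615, 553.5 and 673.5 (1.39, SE 0.32, adjusted p = 0.0141). The xyloglucan transferase lost its call without CTRL replicate 1 (adjusted p = 0.0555), ADF3 without CTRL replicate 1 or MS replicate 3 (up to 0.0657), and XTH without any 1 array but MS replicate 1 (up to 0.249).

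**Figure D3:**
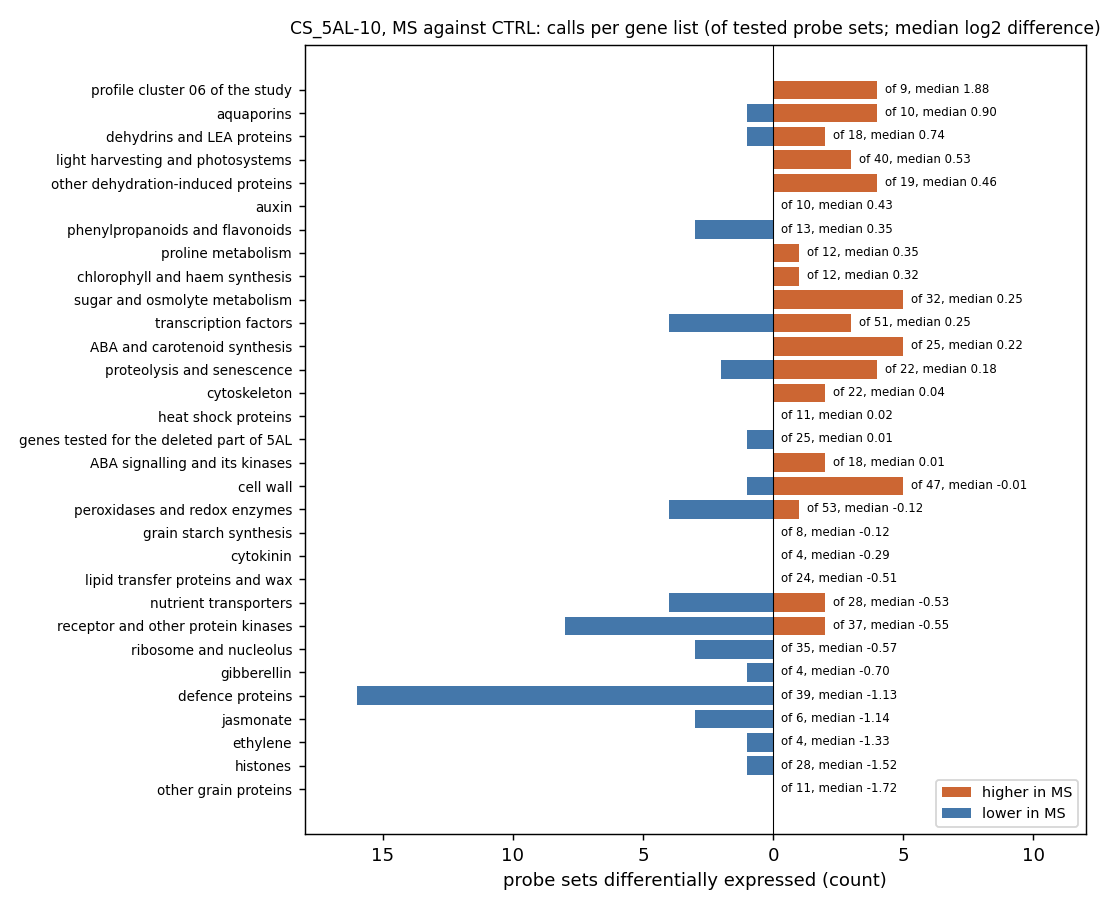
Number of probe sets up-regulated (right of 0) and down-regulated (left of 0) in MS against CTRL of CS_5AL-10 in each gene list with at least 4 tested members, with the number tested and the median log2 difference beside each bar, ordered by that median. Defence proteins had the most falls, 16 of 39 with no rise, and cluster 06 had the highest median, 1.88. The study had described cluster 06 by its rise under MS in CS_5AL-10, and only 9 of its probe sets were held, so that its rank is not a finding.

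Defence proteins gave more falls than any other list. Of 39 tested probe sets 16 were down-regulated and none up-regulated, with a median of -1.13 and 28 negative differences. All 39 come from the study's drought list, of whose tested probe sets 10.9% fell, beside 1.5% of all probe sets tested. The count of 16 defence falls lay between 8 and 17 under every alternative except the methods' t-test. It was 8 without CTRL replicate 3 and MS replicate 1, and 16 with the storage protein mean as a covariate. The group takes in chitinases, beta-1,3-glucanases and thaumatin-like proteins, which attack fungal walls or membranes. Basic endochitinase read 524, 664.5 and 332 in CTRL and 68.4, 115 and 51.6 in MS (-2.51, SE 0.42, adjusted p = 0.00129). A beta-1,3-glucanase-like enzyme of glycosyl hydrolase family 17 fell from 147, 97.5 and 97.1 to 5.62, 9.66 and 3.81 (-2.56, SE 0.54, adjusted p = 0.00702), and another of that family from 169, 151 and 162 to 1.92, 33.02 and 29.6 (-2.41, SE 0.52, adjusted p = 0.00889). The MS values of both enzymes were under the array median, where they cannot be told from background. The osmotin-like protein OSM34 stayed well measured, at 5219, 4576 and 1942 in CTRL and 437, 947 and 436 in MS (-2.67, SE 0.75, adjusted p = 0.0405). A disease resistance-responsive protein fell from 424, 510.4 and 287 to 64.9, 111 and 60.2 (-2.2, SE 0.48, adjusted p = 0.0098). OSM34 lost its call without CTRL replicate 1 or 2 or MS replicate 1 or 3 (adjusted p up to 0.139), the second family 17 enzyme without MS replicate 1 (0.0506) and the disease resistance-responsive protein without CTRL replicate 2 (0.0557).

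**Figure D4:**
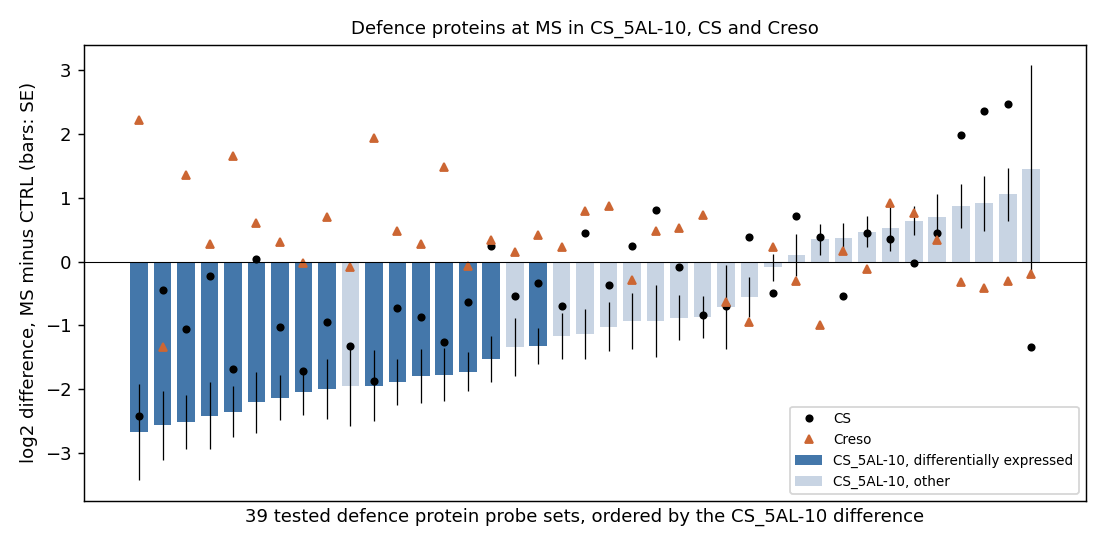
Log2 difference of MS and CTRL for each of the 39 tested defence probe sets in CS_5AL-10 (bars, dark where down-regulated, with SE), and for the same probe sets in CS (points) and Creso (triangles). The medians are -1.13 in CS_5AL-10, -0.45 in CS and 0.28 in Creso.

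In the lists of oxidative and phenylpropanoid enzymes most members were not called, which did not hold for the jasmonate list. Peroxidases and redox enzymes had 1 rise and 4 falls among 53, with a median of -0.12 and 23 positive differences. Peroxidase 32, a wall peroxidase, read 305, 310.1 and 694 in CTRL and 5.42, 45.7 and 3.85 in MS (-3.86, SE 0.58, adjusted p = 0.000493). Another peroxidase went from 4388, 4763 and 4205 to 965, 1802 and 1492 (-1.72, SE 0.44, adjusted p = 0.0247). The germin-like protein GER1 and a microsomal glutathione S-transferase fell by 2.49 and 1.75 (adjusted p = 0.0314 and 0.0118). The 1 rise, chosen after its values were seen, was the catalase CAT1, which removes hydrogen peroxide: 10440, 8997 and 7144 in CTRL and 17230, 19700 and 21300 in MS (1.1, SE 0.14, adjusted p = 8.05e-05, under 2-fold without CTRL replicate 3). In the jasmonate list, drawn up by gene name, 3 of 6 probe sets fell, and the names do not show that each acts in jasmonate synthesis. A lipoxygenase went from 3790, 4552 and 4362 to 2700, 1306 and 1024 (-1.49, SE 0.37, adjusted p = 0.022), and the 12-oxophytodienoate reductase OPR2 from 544, 855 and 443 to 167, 158 and 196.5 (-1.72, SE 0.41, adjusted p = 0.0154). Of 13 phenylpropanoid probe sets 3 fell and none rose, although the median was positive, at 0.35. Phenylalanine ammonia-lyase 2 (PAL2), the entry enzyme, read 823, 822 and 738.5 against 499, 448 and 233 (-1.09, SE 0.27, adjusted p = 0.019). A dihydroflavonol 4-reductase, a step towards anthocyanins, fell by 1.11 (SE 0.31, adjusted p = 0.0437). Leaving out 1 array ended the calls of the second peroxidase and GER1 (all but MS replicate 2, adjusted p up to 0.103 and 0.177), the glutathione S-transferase (CTRL replicate 2 or MS replicate 1, up to 0.0656), lipoxygenase (CTRL replicate 2 or 3, MS replicate 2 or 3, up to 0.121), OPR2 (CTRL replicate 2 or MS replicate 2, up to 0.0932), PAL2 (CTRL replicate 1 or 2, MS replicate 3, up to 0.131) and dihydroflavonol 4-reductase (all but MS replicate 3, up to 0.147).

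Among named probe sets, the falls of about the depth of peroxidase 32 or beyond were in ent-kaurene oxidase and 1 further cluster. Ent-kaurene oxidase, an early enzyme of gibberellin synthesis, read 395, 466 and 230.5 in CTRL and 3.44, 5.98 and 24.8 in MS (-3.86, SE 0.52, adjusted p = 0.000207). Its MS values were far under the array median. A UniGene cluster with 3 probe sets carries conflicting names in the study's annotation, an aspartyl protease for 2 of them and a cyclin for the other, and all 3 fell. An aspartyl protease probe set read 563, 581 and 274 in CTRL and 11.9, 15.3 and 7.21 in MS (-4.13, SE 0.51, adjusted p = 8.05e-05). The other aspartyl protease probe set fell by 4.25 (SE 0.65, adjusted p = 0.000643), and the cyclin probe set went from 1422, 1588 and 881 to 128, 176 and 35.6 (-3.54, SE 0.5, adjusted p = 0.000304). The aspartyl protease probe sets are the 2 falls of the protein turnover list given above. None of these calls rested on 1 array.

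Further genes among the largest named changes belong to no list above. A glycosyltransferase that moves sugar from UDP-glucose went from 1584, 1787 and 815 to 58.95, 233 and 155 (-3.22, SE 0.65, adjusted p = 0.00563), and a second from 2359, 2677 and 1196 to 123, 440.5 and 299 (-2.9, SE 0.65, adjusted p = 0.0117). Cytochrome P450 71A12, of a family of camalexin enzymes in Arabidopsis, fell from 709.6, 832 and 418 to 70.3, 102 and 106.5 (-2.62, SE 0.42, adjusted p = 0.000874). Another cytochrome P450 rose, from 154, 101 and 126 to 973.5, 586 and 465 (2.18, SE 0.34, adjusted p = 0.000767). A protein with a heavy-metal-associated domain read 931, 946 and 808 in CTRL and 94.6, 184 and 74.5 in MS (-2.89, SE 0.41, adjusted p = 0.000335). Only the second glycosyltransferase among these 5 lost its call when 1 array was left out, CTRL replicate 2 or MS replicate 1 (adjusted p up to 0.0612).

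Receptor and other protein kinases had 2 rises and 8 falls among 37 probe sets. A kinase without a closer name read 2333, 2518 and 1333 in CTRL and 130, 352 and 215 in MS (-3.15, SE 0.51, adjusted p = 0.000991), and a companion probe set fell by 2.98 (SE 0.48, adjusted p = 0.00103). SERK2, a co-receptor of brassinosteroid and defence signalling in Arabidopsis, fell from 422, 547 and 331 to 63.9, 66.8 and 26.3 (-2.79, SE 0.55, adjusted p = 0.00466). The CTRL and MS values of all 3 were far apart. Among 28 nutrient transporters 2 rose and 4 fell. The glucose transporter STP1, which takes up sugar from the cell wall space, fell from 2323, 2364 and 1372 to 344, 824 and 659.7 (-1.79, SE 0.35, adjusted p = 0.00483).

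Genes of growth had mostly negative differences, with few calls. Of 35 ribosome and nucleolus probe sets 29 had negative differences (median -0.57), 3 fell and none rose. A pescadillo-related protein, needed to build the large ribosomal subunit, read 1657, 1586 and 1684 in CTRL and 906, 798 and 668 in MS, tightly grouped (-1.09, SE 0.18, adjusted p = 0.00134). Ribosomal protein L4 fell by 1.28 (SE 0.32, adjusted p = 0.023). Among 28 histone probe sets the median was -1.52 with 26 negative differences, but 1 was called, H2A-3, a core histone, at 613, 428 and 1507 in CTRL and 350.2, 173 and 205 in MS (-1.64, SE 0.43, adjusted p = 0.0316). CTRL replicate 3, the control array with the most storage protein RNA, was also the highest for H2A-3, and without it the median of the histone list was -0.85. The part of grain RNA in these differences was not tested. H2A-3 and ribosomal protein L4 lost their calls without CTRL replicate 1 or 3 or MS replicate 3, and H2A-3 also without MS replicate 2 and L4 without MS replicate 1 (adjusted p up to 0.208 and 0.15), and pescadillo fell under 2-fold without MS replicate 3.

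The study tested 25 probe sets as candidates for the deleted part of 5AL, chosen because they were low in CS_5AL-10 on these arrays, so that neither their low level nor a small response is a finding. Their group means were 4.11 to 87.1 in CTRL of CS_5AL-10, beside 743.5 to 14170 in CTRL of CS. Under MS none was called higher and 1 lower, with a median of 0.01, given as a description of probe sets that read below the array median or near it. The fall was of a probe set that matches a rice protein of unknown function, from 106, 72.3 and 83.1 to 74.9, 6.33 and 24.95 (-1.27, SE 0.33, adjusted p = 0.0294). Its 3 MS values and 2 of its CTRL values were close to or under the array median, the groups were apart only after centring, and the call was lost without any 1 array but MS replicate 1 (adjusted p up to 0.184).

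The study described 1 group of probe sets, its cluster 06, by a rise under MS in CS_5AL-10, so that the rise is what selected them and is given as a description. In the study, part of this cluster resembled transposon and retrotransposon sequences. Only a small part of the cluster, 9 probe sets, was held, all without a name, so that their values do not describe the whole cluster. The median difference of the 9 was 1.88 in CS_5AL-10 at MS, 0.74 at SS, and at MS 0.22 in CS and 0.15 in Creso. CTRL and MS values did not overlap for 8 of the 9. The highest difference (2.99, SE 0.77) was that of a probe set that went from 91.9, 134 and 72.2 in CTRL to 1268, 776 and 739.6 in MS, and read 725, 409 and 179 in SS. The member with the median difference went from 39.6, 32 and 37.8 to 213, 191 and 149, and read 72.8, 53.9 and 43.3 in SS (1.88, SE 0.42 for MS against CTRL). For both the SS values lay between the other groups. The lowest member had a difference of 0.45. At the threshold used here 4 of the 9 rose in the fit of all arrays, 7 with the CS_5AL-10 arrays alone, and none without CTRL replicate 3 and MS replicate 1. Leaving out CTRL replicate 2 or MS replicate 3 left 2 calls, and leaving out CTRL replicate 1 or 3 or MS replicate 1 or 2 left 1, as did an offset of 1 in place of 16. No difference from CS or Creso among the 9 passed the test of the difference.

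**Figure D5:**
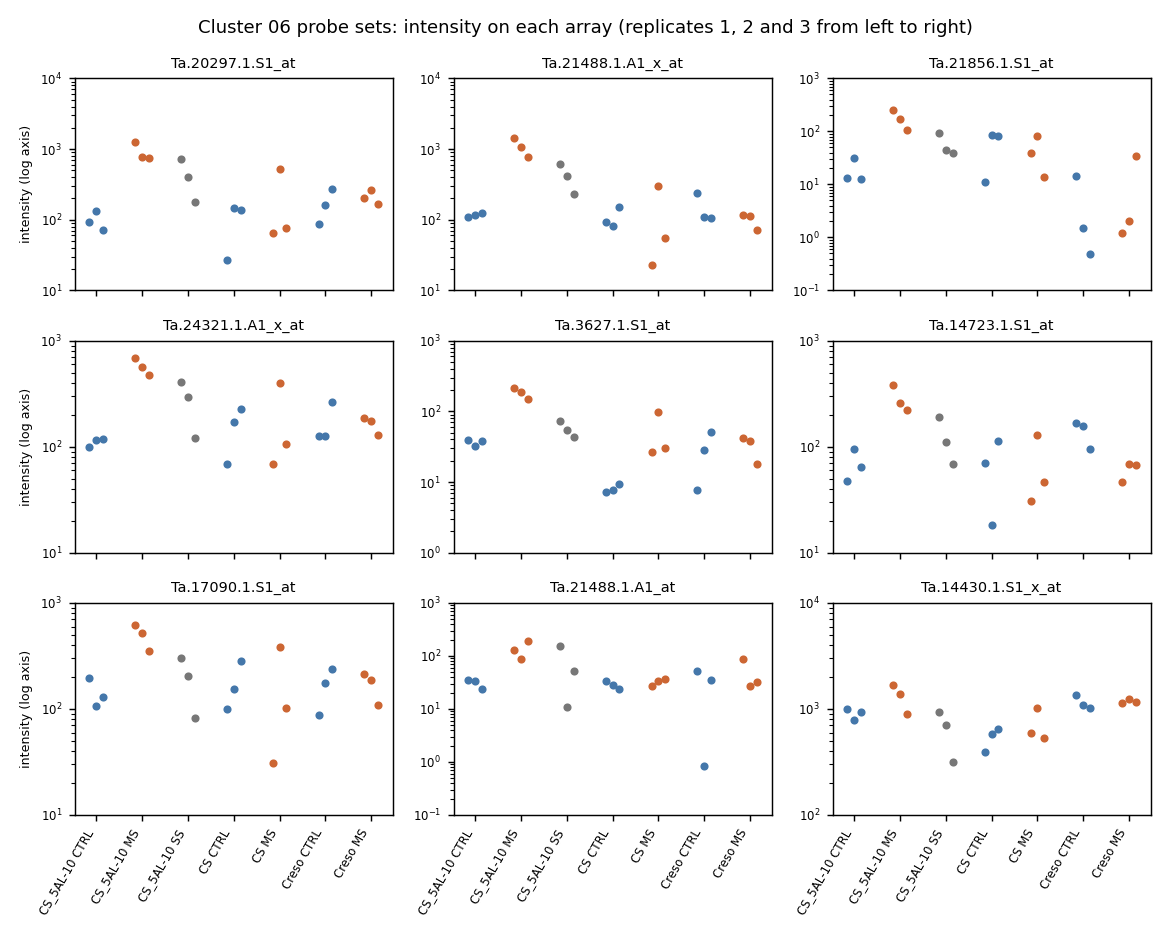
Intensity (log axis) of the 9 cluster 06 probe sets held, on each array of CS_5AL-10 (CTRL, MS, SS), CS and Creso (CTRL, MS), with the replicates of a group from left to right. In CS_5AL-10 the MS values exceed the CTRL values without overlap for all but the member with the lowest difference, and 1 of the 3 CS MS arrays, replicate 2, reads above the other CS MS arrays for most of them.

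The differences in the parent line CS had the same sign for most of these genes. The storage protein mean, the grain signal given above, was 11.79, 11.76 and 12.26 in CTRL of CS and 11.38, 11.61 and 5.6 in MS, so that MS replicate 3 stood apart there. Without that array no probe set passed limma's test of the difference from CS (2658 at an unadjusted p under 0.05), in place of 2. Of the 265 probe sets that rose in CS_5AL-10, 108 also rose in CS, which is 40.8% of them and 18.5% of the 583 that rose in CS. Of the 511 that fell, 67 also fell in CS, 13.1% of them and 32.1% of the 209 in CS. The sign was shared by 92.1% of the rises and 87.7% of the falls, beside 63% of all tested probe sets, and no probe set was called in opposite directions. Fold changes were smaller in CS, with medians of 0.93 over the 265 and -0.54 over the 511, where the probe sets had been chosen for their difference in CS_5AL-10. The contrast between the genotypes had a median of -0.22 over all tested probe sets with the centring used, against -0.03 after quantile normalization, 0 with no centring and 0.02 when centred on the tested probe sets.

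The test of the difference between CS_5AL-10 and CS found 2 probe sets at an adjusted p under 0.05 (0.00587% of those tested), and 3601 at an unadjusted p under 0.05. Both are unnamed and went down in CS_5AL-10 and up in CS. The first read 989, 1053 and 908 in CTRL and 458, 452 and 385 in MS of CS_5AL-10, beside 1025, 1091 and 1465 and then 2362, 1871 and 1581 in CS. The contrast was -2.06 (SE 0.33, adjusted p = 0.0338), with no overlap in either line, and Creso differed by -1.49. The second read 414, 273 and 237 in CTRL and 182, 191 and 164 in MS of CS_5AL-10, and 298, 269 and 472.5 and then 907, 888 and 836 in CS (-2.25, SE 0.36, adjusted p = 0.0338). Its difference was -0.73 in CS_5AL-10, which did not pass on its own (adjusted p = 0.102), and -0.97 in Creso. ATERF-9, with -1.14 in CS_5AL-10 and 0.63 in CS, came close (contrast -1.77, SE 0.33, adjusted p = 0.0719). For ent-kaurene oxidase (-0.98 in CS) and the first aspartyl protease probe set (-1.4 in CS) the contrasts of -2.88 and -2.73 did not pass (adjusted p = 0.175 and 0.186). The count of 2 was unstable: without CS CTRL replicate 1 it was 36, 5 without CS CTRL replicate 3, 4 without CS_5AL-10 CTRL replicate 3 and 1 without CS MS replicate 1, and it was 0 without any 1 of the other 8 arrays, which are CTRL replicates 1 and 2 and MS replicates 1, 2 and 3 of CS_5AL-10, and CTRL replicate 2 and MS replicates 2 and 3 of CS.

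More probe sets passed the test of the difference against durum wheat than against CS. The labels place Creso at 7 days past anthesis and CS_5AL-10 at 10. The study also gives Creso the more negative leaf water potential in both CTRL and MS. Stage, water status and genotype therefore cannot be told apart. The storage protein mean was 5.32, 5.25 and 5.01 in CTRL of Creso and 9.16, 5.38 and 5.16 in MS, with MS replicate 1 apart. Without that array 399 probe sets passed the test of the difference given next, in place of 378. Of the rises of CS_5AL-10, 45 were also called in Creso (17% of them and 18.7% of the 241 in Creso), and of the falls 23 (4.5% of them and 11.8% of the 195). The sign was shared by 76.6% of the rises, 55.6% of the falls and 51.7% of all tested probe sets, and 11 probe sets were called in opposite directions. The contrast of the MS responses had an unadjusted p under 0.05 in limma for 5277 probe sets (15.5%), beside 3601 (10.6%) for the contrast with CS. It passed the test for 378 probe sets (1.11%), 65 with the higher response in CS_5AL-10 and 313 with the lower. That split depended on the scaling: 17.2% were higher in CS_5AL-10 with the centring used, 40.6% after quantile normalization, 47% with no centring and 56.6% when centred on the tested probe sets. In 350 of the 378 the signs were opposite, with a median of -0.79 in CS_5AL-10 and 0.46 in Creso. Of the probe sets that fell in CS_5AL-10, 24.3% were among them, and of those that rose, 7.55%. These calls were made on CS_5AL-10 arrays that also enter the contrast, so that both shares are a description and not independent evidence. The shares were taken only with the centring used.

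Of the 378 probe sets 58 had a name, 14 with the higher and 44 with the lower response in CS_5AL-10. Of these 58, 27 were called lower in CS_5AL-10, 8 higher and 23 not called. The genes given next were chosen by their change in CS_5AL-10 or by their contrast. Ent-kaurene oxidase, already given for CS_5AL-10, read 19.2, 37.5 and 39.3 in CTRL and 126.5, 137 and 123 in MS of Creso, without overlap (contrast -5.55, SE 0.74, adjusted p = 0.000674). The basic endochitinase read 619, 697 and 636.5 and then 1223, 1375 and 2477 in Creso, where every stressed sample was above the controls (contrast -3.87, SE 0.6, adjusted p = 0.00268). OSM34 went from 162, 141 and 93.9 to 536, 466 and 994 in Creso (contrast -4.89, SE 1.06, adjusted p = 0.0256). The first glycosyltransferase and the first of the kinase probe sets had contrasts of -5.26 and -4.45 (adjusted p = 0.00626 and 0.00353). In the opposite direction, the first hydrophobic protein read 3048, 3566 and 2102 in CTRL and 1740, 2844 and 1984 in MS of Creso, with overlap (contrast 2.56, SE 0.4, adjusted p = 0.00268). The bZIP factor was likewise not raised in Creso, at 1584, 1023 and 1726 against 1253, 894 and 977 (contrast 2.02, SE 0.4, adjusted p = 0.0171). The cytochrome P450 that rose in CS_5AL-10 was low throughout in Creso, at 10.7, 38.4 and 47.7 and then 18.5, 27.9 and 17.8 (contrast 2.4, SE 0.48, adjusted p = 0.0174). For NCED, P5CS and P2C-HA no difference passed the test: the contrasts with Creso were 0.76 for the leading NCED probe set, 0.1 for P5CS and 0.58 for the second P2C-HA probe set, with adjusted p of 0.357, 0.949 and 0.534. The count of 378 lay between 115 and 418 on leaving out 1 array, with 115 without MS replicate 3, 130 without CTRL replicate 2, 137 without CTRL replicate 3, 188 without CTRL replicate 1 and 210 without MS replicate 2 of CS_5AL-10, and 194 without CTRL replicate 2 of Creso.

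Severe stress in CS_5AL-10, measured against the same CTRL arrays, is given beside these values. The leading NCED probe set read 13230, 13990 and 7536 in SS, P5CS 24440, 17100 and 16770, and the first antenna protein 11650, 8191 and 15160. The last was higher in SS than in MS by 2.32 (adjusted p = 0.00386), whereas the NCED and P5CS differences of 0.89 and 1.14 did not pass (adjusted p = 0.141 and 0.118). The first hydrophobic protein read 3397, 1640 and 2245 in SS, a difference of -1.18 from MS (adjusted p = 0.0417). The leading aquaporin was higher in SS than in MS, at 25220, 23750 and 20460 (0.9, adjusted p = 0.01). Ent-kaurene oxidase stayed low, at 3.05, 8.24 and 3.89. A polyubiquitin reference probe set of the study read 10350, 10120 and 9669 in CTRL and 10750, 11300 and 11560 in MS, a difference of 0.12 (SE 0.14, adjusted p = 0.72), and its groups overlapped after centring.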

How the data were processed

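The authors deposited 1 table of linear MAS5 intensities (version not stated), scaled so that the trimmed means of the arrays lay between 500.2 and 500.3, whereas the study's own results were obtained with RMA. No raw files or detection calls were used here. From 61290 probe sets, 111 manufacturer controls were dropped. Values were taken to log2(value + 16) and centred on the common median, because the highest of the 27 array medians was 1.676 times the lowest (59.1 to 99.07). Probe sets above the array median on all 3 arrays of at least 1 of the 9 groups were tested. The 9 group means were estimated together with limma 3.58.1 (R 4.3.3), using eBayes with a variance trend (residual degrees of freedom 18, prior 5.52), and p-values were adjusted by Benjamini and Hochberg over the probe sets tested. The difference of the MS responses of 2 genotypes was tested in the same fit at adjusted p alone. Marker levels were compared with exact permutation tests. The code was tested on simulated data.

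Names (1205 probe sets) came from Arabidopsis matches in the study's drought list, of which 1420 rows were held (906 names), from platform symbols (187), protein matches (62) and the study's pathway file (50). Named in the text are some of the genes given by a rule: the 15 largest rises and falls with a name and no overlap, up to 4 called members per list, genes the study names, the largest differences between genotypes, and the largest unnamed rise and fall. Members, lists and rule were chosen with earlier results of these data known, and the list patterns were revised once the table had been seen. The alternatives were other filters, scalings, offsets and fits, a replicate block, storage protein level as a covariate, and each array left out. A further alternative was the methods' Welch t-test, run on the centred MAS5 values rather than on RMA values.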

Additional observations from a re-analysis of the deposited data

Results flagged for a closer look

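The response to MS differed between CS_5AL-10 and another genotype, by the test of the difference itself, for 2 probe sets against CS and 378 against Creso. The 2 against CS are without a name (-2.25 and -2.06 on the log2 scale), both lower in CS_5AL-10. Among the genes described in the text, which are some of the 58 named probe sets that passed against Creso, those with the higher response in CS_5AL-10 were the first hydrophobic protein (2.56), a cytochrome P450 (2.4), the bZIP factor (2.02), RNS1 (1.99), the leading aquaporin (1.02) and CAT1 (0.86). The genes of the text with the lower response included 3 defence proteins, the disease resistance-responsive protein (-2.8), the basic endochitinase (-3.87) and OSM34 (-4.89). Peroxidase 32 (-3.37), cytochrome P450 71A12 (-2.76), the glycosyltransferase (-5.26), ent-kaurene oxidase (-5.55) and the heavy-metal-associated protein (-2.44) are enzymes or binding proteins that also had the lower response. The kinases were SERK2 (-3.77) and both probe sets of the kinase without a closer name (-4.36 and -4.45), and the 3 probe sets named aspartyl protease or cyclin had -3.69, -3.97 and -4.05. In the comparison with Creso the genotypes also differ in the labelled day of sampling and, in the study, in leaf water potential.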

How the results depend on the processing

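The 776 calls became 0 with the methods' t-test (1148 at an unadjusted p under 0.05), 1565 with no fold threshold, 389 without the 2 arrays of highest storage protein mean and 477 to 633 with 1 array left out. That t-test was run on the centred MAS5 values used here. With RMA values and its own filter, the study did call probe sets in this comparison, more of them higher than lower in MS. The 776 calls stayed within 1.5 times under other filters, scalings, offsets, the CS_5AL-10 arrays alone and the covariate (570 to 974). The 2 differences from CS became 0 with no filter, with an offset of 1 or without the highest storage arrays, 13 with the 75th percentile filter, 8 after quantile normalization or with the covariate, 4 with no centring, 16 with an offset of 64, 6 with the 2 genotypes alone and 0 to 36 with 1 array left out. The 378 differences from Creso became 204 with no filter, 626 after quantile normalization, 621 with no centring, 607 with an offset of 64, 140 with the 2 genotypes alone, 747 with the covariate, 166 without the highest storage arrays and 115 to 418 with 1 array left out. The 103 calls in the gene lists became 0 with the t-test, 48 without the highest storage arrays and 61 to 86 with 1 array left out. The cause of these changes was not tested. CIPK10 ran from -0.28 to 0.29 with 1 array left out (-0.28 without MS replicate 3, -0.11 without CTRL replicate 2), and no named call changed direction. Of 78 named calls, 26 held under every alternative but the t-test, which kept none, and 30 were lost in over 3. The offset of 1 ended 17 of them, and leaving out both arrays of highest storage protein mean ended 40. With those 2 arrays left out, the rises went from 5 to 2 in carotenoid and ABA synthesis. They went from 5 to 2 in sugar metabolism and from 4 to 1 in protein turnover, while the 4 aquaporin rises stayed. Replicate numbers did not pair the samples (correlations of deviations -0.23, 0.2 and -0.08), and with a replicate block 752 calls were made (721 shared), with 2 and 316 differences from CS and Creso. Values near the array median limit what low genes show.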

Other observations

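Several groups of genes gave no call in CS_5AL-10 at MS. None of 11 heat shock probe sets passed, with a median difference of 0.02 that turned to -0.16 after quantile normalization, and the heat shock factor HSF4, a regulator of chaperone genes, came closest, at -0.79 (SE 0.24, adjusted p = 0.0598). The 24 lipid transfer and wax probe sets had a median of -0.51, the 10 auxin probe sets 0.43, the 4 cytokinin probe sets -0.29 and the 8 starch synthesis probe sets of the grain -0.12, all without a call. Under other settings single calls appeared: 1 auxin rise after quantile normalization, with no centring, with centring on the tested probe sets, with the CS_5AL-10 arrays alone or without MS replicate 1, 1 grain starch rise after quantile normalization, with centring on the tested probe sets or without MS replicate 1, and 1 lipid transfer or wax fall with an offset of 64 or with the storage protein covariate.

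The largest rise without a name was that of a probe set with CTRL values of 127, 134 and 135, MS values of 2027, 1593 and 1107 and SS values of 943, 397 and 312 (3.35 for MS against CTRL, SE 0.93, adjusted p = 0.0384). The largest fall without a name was that of a probe set whose CTRL values of 3946, 7008 and 18000 stood against MS values of 136, 185 and 220.4 (-5.4, SE 1.34, adjusted p = 0.0215), and CS differed there by -4.76. The former lost its call without any 1 of the 6 arrays (adjusted p up to 0.11) and the latter without any but CTRL replicate 1 (up to 0.104).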
